A study of Mus musculus with 34 samples.

Results

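A set of 10 genes of fatty acid synthesis and its regulation was followed through adipose tissue and heart of mice fed 1 of 3 diets. They were listed by name: Acly, Acaca, Acacb, Fasn, Elovl6, Scd1 and Me1 as enzymes, and Thrsp, Mlxipl and Srebf1 as regulators. All 10 were found by symbol in both deposited tables, among 15145 genes for adipose tissue and 13238 for heart, and all 10 passed the low-count filter in both, which left 15112 and 13230 genes for testing. The first group was fed HFCD+FMD, a high-fat, high-calorie diet with 60% of calories from fat that gave way every 4 weeks to a fasting mimicking diet lasting 5 days. From cycle 6 onward each fast led into 2 days of control diet. The second group ate HFCD throughout, and the third a control diet with 10% of calories from fat. After 11 cycles, 4 days passed between the end of the fast and tissue collection, so no library comes from the fast itself. All mice were C57BL/6J aged 20 to 22 months, and the labels name neither the fat depot nor the sex.

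Fatty acid synthesis turns surplus carbohydrate into fat. ATP citrate lyase (Acly) splits exported citrate into cytosolic acetyl-CoA, the acetyl-CoA carboxylases (Acaca and Acacb) make malonyl-CoA from it, and fatty acid synthase (Fasn) builds palmitate from both with NADPH that malic enzyme (Me1) helps to supply. Elovl6 lengthens palmitate, and Scd1 puts a double bond into saturated fatty acids. The transcription factors ChREBP (Mlxipl), which responds to glucose, and SREBP-1 (Srebf1), which responds to insulin and sterols, switch these genes on, and Thrsp is a small protein of fat-making tissues that is induced with them.

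Promoter sequences are shown for the synthase, for Thrsp and for both start sites of Mlxipl, because these are a target enzyme, a co-induced gene and the factor whose diet response was measured here. Each is the 250 bases before a transcript start in RefSeq on GRCm38.p6, written in the direction of transcription. Of the 10 genes, 9 had at least 1 start in that table, 13 starts in all. Capitals mark matches, on either strand, to 4 motifs: the E-box CACGTG, the sterol regulatory element TCACNCCAC, the CCAAT box CCAAT and the GC box GGGCGG.
Fasn (chr11:120824548-120824797, minus strand): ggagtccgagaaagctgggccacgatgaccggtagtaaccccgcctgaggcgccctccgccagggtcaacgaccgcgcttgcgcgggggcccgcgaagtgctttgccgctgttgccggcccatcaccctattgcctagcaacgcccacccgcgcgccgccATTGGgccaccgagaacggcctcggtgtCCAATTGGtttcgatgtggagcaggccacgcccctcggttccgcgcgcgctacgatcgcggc
Thrsp (chr7:97417551-97417800, minus strand): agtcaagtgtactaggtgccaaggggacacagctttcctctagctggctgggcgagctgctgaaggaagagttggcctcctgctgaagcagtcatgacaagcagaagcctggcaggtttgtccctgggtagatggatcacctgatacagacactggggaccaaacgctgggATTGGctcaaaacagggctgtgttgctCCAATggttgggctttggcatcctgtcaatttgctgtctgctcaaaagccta
Mlxipl upstream start (chr5:135089640-135089889, plus strand): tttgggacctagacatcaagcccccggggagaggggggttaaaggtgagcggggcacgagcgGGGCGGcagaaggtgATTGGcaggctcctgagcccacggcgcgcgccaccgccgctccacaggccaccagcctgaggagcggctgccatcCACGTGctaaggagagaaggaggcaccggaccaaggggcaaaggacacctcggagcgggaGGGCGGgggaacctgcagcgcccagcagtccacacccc
Mlxipl downstream start (chr5:135106641-135106890, plus strand): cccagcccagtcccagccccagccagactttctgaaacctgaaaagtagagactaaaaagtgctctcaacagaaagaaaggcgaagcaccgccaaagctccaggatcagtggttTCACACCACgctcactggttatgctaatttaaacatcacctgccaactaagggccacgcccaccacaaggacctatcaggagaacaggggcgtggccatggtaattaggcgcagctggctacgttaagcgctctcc

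The Fasn window held 3 CCAAT boxes, a pair of which overlap head to head in one run, and the Thrsp window held 2. The upstream Mlxipl start, from which a shorter, glucose-inducible form of ChREBP is known in mouse, held the E-box, a CCAAT box and 2 GC boxes. Its downstream start held the sterol element, TCACACCAC, and none of the other motifs. Among the 13 windows the E-box and the sterol element were each found in 1, both of Mlxipl. In all 32851 promoter windows of the table the E-box was found in 6.02%, the sterol element in 1.05%, the CCAAT box in 33.8% and the GC box in 32.7%. CCAAT boxes stood in 7 of the 13 windows and GC boxes in 5. A match describes these letters only. The deposited counts sum all transcripts of a gene, so neither the 2 Mlxipl starts nor the 1a and 1c forms of Srebf1 can be told apart in what follows.

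The deposited tables held 13 adipose libraries (6 HFCD+FMD, 4 HFCD and 3 control) and 14 heart libraries (4 HFCD+FMD, 5 HFCD and 5 control). Adipose libraries held 27868228 to 40831656, 23523322 to 36688935 and 15604982 to 28495331 gene counts in HFCD+FMD, HFCD and control, and heart libraries 17050559 to 47859170, 23707218 to 41712499 and 16848195 to 33180337. Values below are CPM, the counts of a gene scaled to a common library total (TMM), and replicate numbers only name libraries. No label says which mouse gave which library, so p-values measure the spread between libraries. Adipocyte markers were strong in every adipose library (Adipoq 1390 to 4260 CPM), and 7 cardiomyocyte markers summed to 26340 to 54230 CPM in every heart library. Mitochondrially encoded genes took 2.20 to 7.48% of counts in HFCD+FMD adipose libraries, 2.17 to 6.08% in HFCD and 12.6 to 29.3% in control, and 29.5 to 62.0%, 36.4 to 71.5% and 21.8 to 32.6% in heart.

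In adipose tissue the 10 genes took a large share of all reads. They made up 1.12 to 5.07% of counts in HFCD+FMD libraries, 2.81 to 3.32% in HFCD libraries and 9.20 to 10.5% in control libraries. Scd1 alone accounted for 0.877 to 4.06%, 2.61 to 3.09% and 7.78 to 8.52%. Per kilobase of exon, Scd1 (4787 ± 2842 CPM per kb), Fasn (342 ± 280) and Thrsp (299 ± 165) led in HFCD+FMD libraries (SD, n = 6) and Acacb was last (7.35 ± 4.42), with Srebf1 (33.7 ± 9.99) as the most abundant of the transcription factors. Under HFCD (n = 4) the same 3 led, Scd1 at 5264 ± 338, Fasn at 108 ± 14.2 and Thrsp at 89.6 ± 15.3 CPM per kb, and Elovl6 was last (3.00 ± 0.802), within its spread of Acaca (3.63 ± 0.281). In control libraries (n = 3) the order was Scd1 (21420 ± 2978), Fasn (1116 ± 264), Thrsp (811 ± 263), Me1 (442 ± 151), Acly (345 ± 150), Elovl6 (175 ± 66.8), Acaca (58.6 ± 13.6), Srebf1 (31.6 ± 12.3), Mlxipl (28.6 ± 9.49) and Acacb (21.6 ± 11.9). Scd1 stood clear of Fasn there, while Fasn and Thrsp, Me1 and Acly, and the last 3 genes lay within their spread of each other.

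The first comparison asked what the high-fat diet did in adipose tissue. Nearly the whole pathway was far lower under HFCD: 9 of the 10 genes fell (edgeR quasi-likelihood test, Benjamini-Hochberg adjusted p of 0.000663 to 0.00931), and Srebf1 did not pass. Of all genes tested, 14.2% were called lower. For the same 9 genes every HFCD library lay below every control library, against 18.9% of all genes. The median change over the 10 genes was -2.68 on the log2 scale, against 0 over all genes tested.

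Gene positions are given on GRCm38. Acly (chr11:100476353-100528000, minus strand), which supplies cytosolic acetyl-CoA, had 281, 284, 275 and 209 CPM in HFCD libraries, against 1383, 2731 and 1344 CPM in control libraries. It was 6.94-fold lower (log2 fold change -2.80 ± 0.57 SE, adjusted p = 0.00472). Acaca (chr11:84129672-84401651, plus strand), the carboxylase that feeds synthesis in the cytosol, had 62.0, 65.2, 65.7 and 55.3 CPM under HFCD, against 1211, 1039 and 753 CPM under control diet. The HFCD libraries were nearly alike, and the drop was 16.1-fold (log2 -4.01 ± 0.59, adjusted p = 0.00119). Acacb (chr5:114146535-114250761, plus strand), the carboxylase at the mitochondrial membrane whose malonyl-CoA restrains fatty acid oxidation, had 39.99, 76.3, 34.8 and 27.8 CPM, against 321, 213 and 91.8 CPM. HFCD replicate 2 came close to control replicate 5 without reaching it, and the fall was 4.65-fold (log2 -2.22 ± 0.51, adjusted p = 0.00777).

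Fasn (chr11:120805846-120824547, minus strand) had 1083, 1233, 1378 and 1034 CPM in HFCD libraries, against 12520, 14950 and 9197 CPM in control libraries. It was 10.3-fold lower (log2 -3.37 ± 0.74, adjusted p = 0.00655). Elovl6 (chr3:129532355-129638495, plus strand) moved most of the 10 genes: it had 22.5, 12.3, 23.8 and 18.7 CPM under HFCD, against 1397, 1348 and 630 CPM under control diet. That is a 58.3-fold difference (log2 -5.87 ± 0.78, adjusted p = 0.000687). Scd1 (chr19:44394455-44407879, minus strand), the most abundant of them, had 28090, 24200, 25210 and 25510 CPM, against 117500, 107900 and 88870 CPM. Its fall was 4.07-fold (log2 -2.02 ± 0.49, adjusted p = 0.00931), among the smaller ones in the group. Me1 (chr9:86581371-86695953, minus strand), which reduces NADP while it makes pyruvate, had 282, 361, 257 and 248 CPM, against 1920, 2142 and 1043 CPM, 5.93-fold lower (log2 -2.57 ± 0.34, adjusted p = 0.000663).

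Among the regulators, Thrsp (chr7:97412938-97417730, minus strand) had 199, 152, 234 and 200 CPM in HFCD libraries, against 2240, 1954 and 1131 CPM in control libraries, a 9.05-fold fall (log2 -3.18 ± 0.48, adjusted p = 0.00128). Mlxipl (chr5:135089890-135138382, plus strand) had 38.7, 44.5, 67.0 and 71.4 CPM, against 216, 147 and 113 CPM. The glucose-responsive factor was thus 2.86-fold lower, the smallest of the 9 falls (log2 -1.52 ± 0.36, adjusted p = 0.00929). Srebf1 (chr11:60199089-60222581, minus strand) had 168, 176, 137 and 119 CPM under HFCD, against 249, 175 and 111 CPM under control diet. The 2 groups overlapped, and its log2 fold change was -0.25 ± 0.30 (adjusted p = 0.553).

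**Figure D1:**
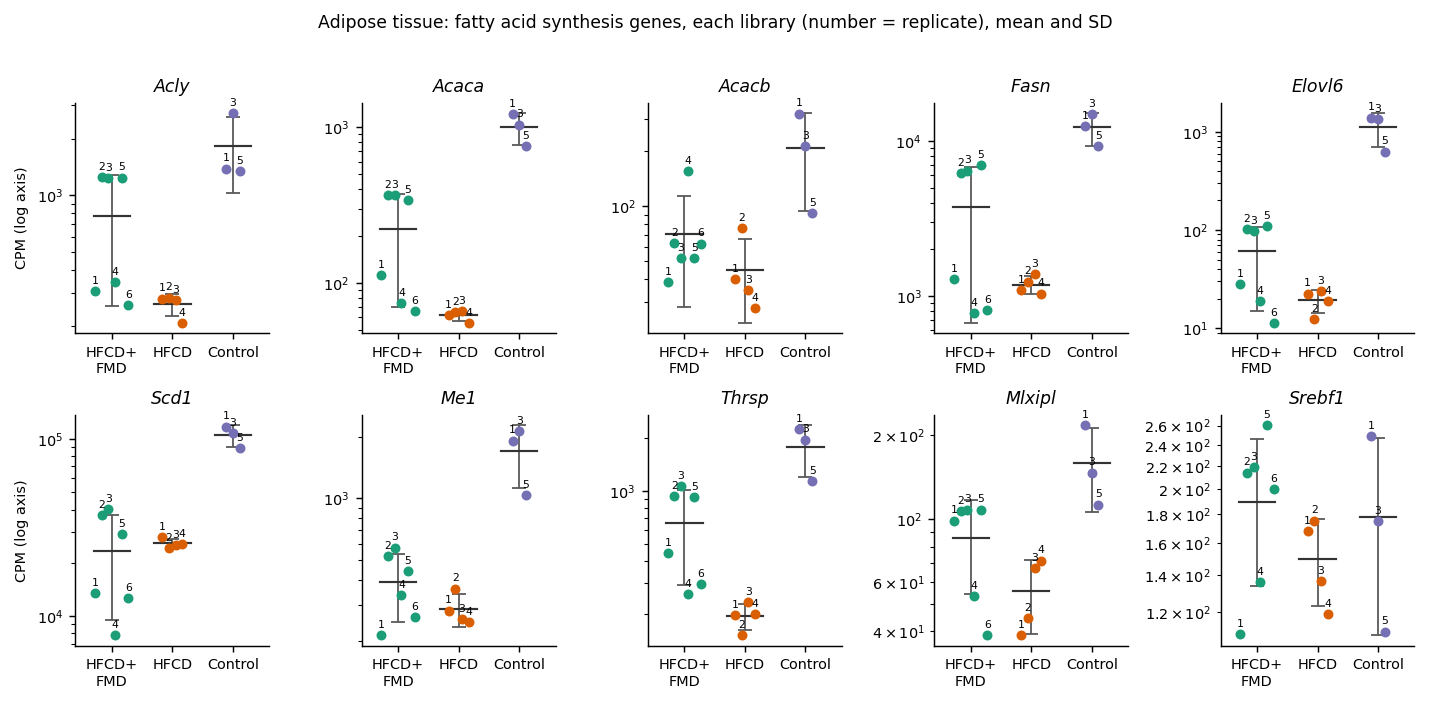
Each point is an adipose library (its replicate number above it) for the 10 genes, in CPM on a log axis, with HFCD+FMD left (n = 6), HFCD in the middle (n = 4) and control right (n = 3); bars are the mean and whiskers the SD. For 9 genes all HFCD points lie below all control points; Srebf1 overlaps. HFCD+FMD replicates 2, 3 and 5 sit above HFCD for every gene but Acacb.

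The 9 called genes held in each of the 13 fits that left out 1 library and in the 8 other settings tried. The setting with library totals without the mitochondrially encoded genes could hardly change a call, because TMM scaling offsets a changed total. The least firm was Mlxipl, with an adjusted p of 0.0498 without control replicate 1. Other RNA moved with these falls. All 7 macrophage markers were higher under HFCD (sum 2153 to 4090 CPM, against 220 to 1063 CPM in control; median log2 3.05), 5 of 8 adipocyte markers were lower (sum 19710 to 23420, against 29690 to 51120 CPM; median -0.75), and 5 of 6 mesothelial markers were lower (sum 21.0 to 110, against 174 to 393 CPM). Of 8 brown or beige fat markers 4 were lower (sum 220 to 245, against 221 to 700 CPM), with Ucp1 at 130 CPM in control replicate 1 and below 1 CPM in control replicates 3 and 5. Of 5 endothelial markers 1 was higher (sum 1128 to 1278, against 771 to 900.5 CPM). Of 5 hepatocyte markers, 1 was called lower, Cyp2e1 (307 to 954 CPM, against 3810 to 7400 CPM in control), which fat cells also make, while Alb ran from 13.3 to 94.8 CPM, against 82.7 to 265 CPM, and Apoa1, Ttr and Serpina1c were at or near 0 in most libraries of both diets. Fewer adipocytes and less RNA per adipocyte cannot be told apart in bulk tissue, and the part of these markers' cells in the falls was not tested.

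Lists of the wider pathway show how far the change reached. All 11 genes of citrate export and acetyl-CoA supply fell under HFCD, with a median log2 fold change of -1.51. Mpc1, a subunit of the carrier that takes pyruvate into mitochondria, had a mean of 2.91 ± 0.768 CPM against 14.2 ± 1.81 CPM in control (log2 -2.29 ± 0.28, adjusted p = 0.000512). The pyruvate dehydrogenase genes Pdha1, Pdhb and Dlat had log2 fold changes of -1.51, -1.82 and -1.18 (adjusted p = 0.000564, 0.00128 and 0.00138). Acss2, which makes acetyl-CoA from acetate, had 84.5 ± 12.2 CPM against 794 ± 270 CPM (log2 -3.23 ± 0.51, adjusted p = 0.00157).

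Of 9 NADPH-supplying genes tested, 5 fell and none rose (median -0.66). Tkt, a transketolase of the pentose phosphate pathway, had 330 ± 19.7 CPM against 2029 ± 413 CPM (log2 -2.62 ± 0.37, adjusted p = 0.00099), and G6pdx, the entry enzyme of that pathway, fell too (log2 -0.85 ± 0.16, adjusted p = 0.00302). Of 16 other elongation and desaturation enzymes, 10 fell (median -1.13), among them the polyunsaturated fatty acid desaturases Fads1 (log2 -1.32 ± 0.13, adjusted p = 0.00025) and Fads2 (log2 -1.66 ± 0.29, adjusted p = 0.00221). The close relatives of Scd1, picked out after their values were seen, fell as well: Scd2 to 467 ± 78.1 CPM, against 1203 ± 784 CPM (adjusted p = 0.0494), Scd3 to 0.598 against 2.91 CPM and Scd4 to 0.406 against 0.965 CPM (adjusted p = 0.00534 and 0.0246). Any reads that match both these related genes and Scd1 may have been split by the counting, which is not given in the sources used here. Of 15 genes of triglyceride assembly, 9 fell and Lpin2 rose (median -0.78), with Gpat4, an acyltransferase of the first step, at log2 -0.82 ± 0.14 (adjusted p = 0.00198). In the separate mitochondrial route of fatty acid synthesis 5 of 9 genes fell (median -0.50), among them its acyl carrier protein Ndufab1 (log2 -0.90 ± 0.22, adjusted p = 0.00954).

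Lists of regulators were followed as well, and here the shares called were mostly closer to those over all genes (14.2% lower and 15.7% higher). Of 8 SREBP-processing genes none was called lower (median -0.02), and Srebf2, the cholesterol-pathway partner of Srebf1, rose (49.8 ± 6.996 CPM against 34.9 ± 6.44 CPM; log2 0.51 ± 0.17, adjusted p = 0.039). Of 14 nuclear receptors and cofactors 2 fell, which at 14.3% is close to the share over all genes (median -0.16), Pparg (log2 -0.61 ± 0.21, adjusted p = 0.0388) and Lpcat3 (log2 -0.96 ± 0.25, adjusted p = 0.0137). Among 11 partners and targets of ChREBP (median -0.33), the fructose transporter Slc2a5 fell (0.119 ± 0.0625 CPM against 10.9 ± 6.75 CPM, adjusted p = 0.00303), as did the insulin-responsive glucose transporter Slc2a4 (log2 -0.88 ± 0.24, adjusted p = 0.0161), while Arrdc4 and Mxd4 rose (log2 0.42 and 0.41, adjusted p = 0.0288 and 0.0434).
Among 14 modifiers of the carboxylases and the synthase, 6 fell (median -0.29), among them the subunits Prkab2, Prkaa2 and Prkag2 of AMP-activated protein kinase, which inactivates the carboxylases (log2 -1.01, -0.93 and -0.67, adjusted p = 0.000994, 0.00708 and 0.00385). Brca1, which is known to bind the phosphorylated carboxylase, rose (8.83 ± 1.68 CPM against 0.929 ± 0.766 CPM, adjusted p = 0.00616). Of 8 genes for taking up fatty acids from outside (median 0.13), Fabp4 fell and Vldlr rose (log2 -1.0 and 0.74, adjusted p = 0.0169 and 0.00619), 12.5% in each direction and so below the shares over all genes. These lists were chosen with results of these libraries known, so their counts describe the data and are no independent evidence.

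**Figure D2:**
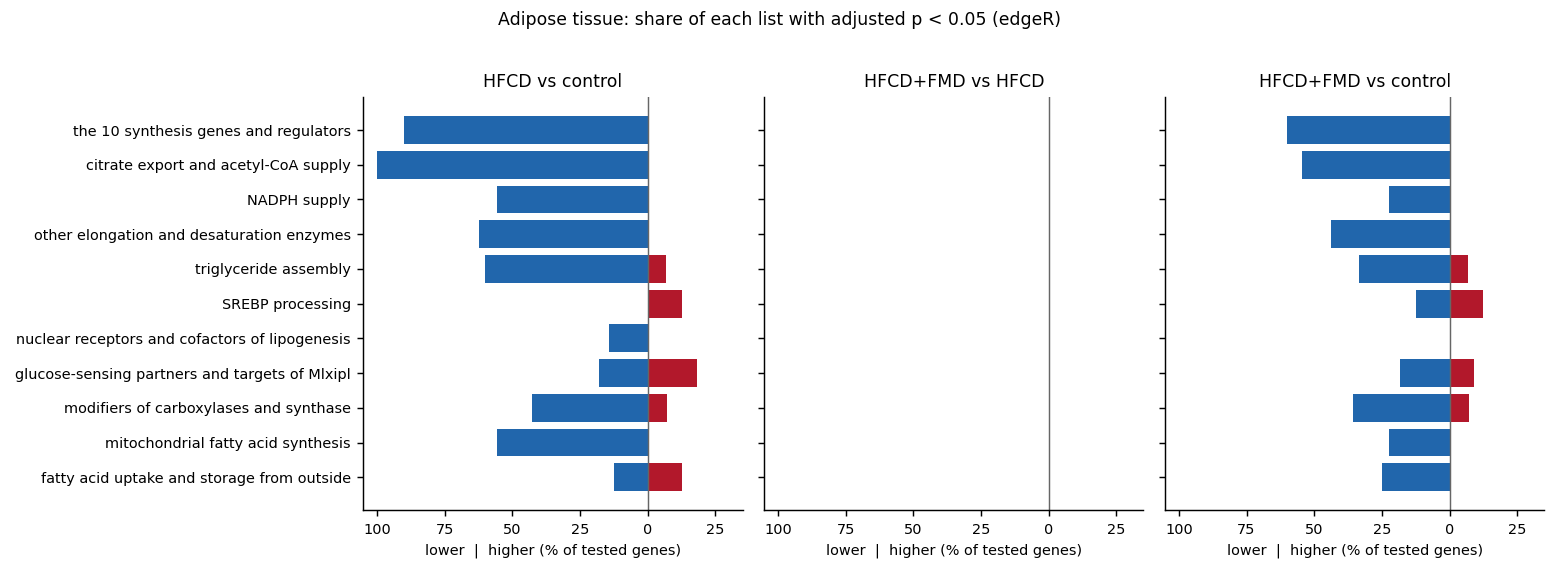
For the 10 genes and 10 lists of the wider pathway in adipose tissue, bars give the percent of tested genes with adjusted p under 0.05, lower to the left and higher to the right, in the 3 diet comparisons (n = 6 HFCD+FMD, 4 HFCD and 3 control libraries). All 11 acetyl-CoA supply genes were lower under HFCD than under control diet, and no bar appears for HFCD+FMD against HFCD.

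The second comparison asked whether fasting mimicking cycles changed these genes on top of the high-fat diet in adipose tissue. None of the 10 was called between HFCD+FMD and HFCD (edgeR, adjusted p of 0.146 to 0.931), where 0.205% of all genes were called in either direction. Of the log2 fold changes 9 were above 0 and 1 (Scd1) below. At an unadjusted p under 0.05, 5 of the 10 genes (Acly, Acaca, Fasn, Elovl6 and Thrsp) would pass, against 11.2% of all genes. The median of their log2 fold changes was 1.11, against 0.01 over all genes. On the log2 scale the HFCD+FMD libraries were spread wider than the HFCD libraries for each of the 10 genes, though not to the same extent. The share of all genes with a wider spread was not computed, so this cannot be weighed against it or called a trait of these genes. The SD of log2 CPM was 1.57 against 0.19 for Fasn and 0.97 against 0.091 for Scd1, but 0.65 against 0.43 for Mlxipl and 0.69 against 0.62 for Acacb.

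Fasn had 1278, 6189, 6417, 769, 6974 and 804 CPM in HFCD+FMD replicates 1 to 6, against 1034 to 1378 CPM in the HFCD libraries. Replicates 2, 3 and 5 were well above HFCD, replicates 4 and 6 below it and replicate 1 within it (log2 1.66 ± 0.64, adjusted p = 0.36). Acly had 308, 1247, 1233, 344, 1238 and 259 CPM, against 209 to 284 CPM. Here the same 3 libraries were high and close to the lowest control library, 1344 CPM (log2 1.56 ± 0.50, adjusted p = 0.266). Scd1 had 13550, 37250, 40370, 7818, 28920 and 12600 CPM, against 24200 to 28090 CPM. Replicates 1, 4 and 6 were below every HFCD library and replicates 2, 3 and 5 above, so that the means were close (log2 -0.14 ± 0.41, adjusted p = 0.931).

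Thrsp was the only one of the 10 whose diet groups did not overlap: its lowest, median and highest HFCD+FMD values were 261, 684 and 1067 CPM, against 152, 199 and 234 CPM for the HFCD libraries. It was 3.34-fold higher (log2 1.74 ± 0.41, adjusted p = 0.146, edgeR), and 1.39% of all genes had every HFCD+FMD library above every HFCD library. Acaca ran from 65.7 through a median of 227 to 367 CPM, against 55.3 to 65.7 CPM (log2 1.83 ± 0.50, adjusted p = 0.193). Replicate 6, the lowest, was level with the highest HFCD library. Elovl6 ran from 11.3 through 62.9 to 110 CPM, against 12.3 to 23.8 CPM (log2 1.67 ± 0.61, adjusted p = 0.331).
Me1 ran from 214 through 388 to 575 CPM, against 248 to 361 CPM (log2 0.45 ± 0.28, adjusted p = 0.582). Mlxipl ran from 38.8 through 103 to 108 CPM, against 38.7 to 71.4 CPM (log2 0.63 ± 0.31, adjusted p = 0.471), with replicate 1 near the top of the range (98.99 CPM), unlike its place for Fasn or Scd1. Srebf1 ran from 110 through 207 to 260 CPM, against 119 to 176 CPM (log2 0.34 ± 0.26, adjusted p = 0.648). Acacb kept a pattern of its own: HFCD+FMD replicate 4, which had the lowest Fasn and Scd1, had the highest Acacb (156 CPM), while the other HFCD+FMD libraries held 38.5 to 63.2 CPM, against 27.8 to 76.3 CPM under HFCD (log2 0.66 ± 0.43, adjusted p = 0.592).

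**Figure D3:**
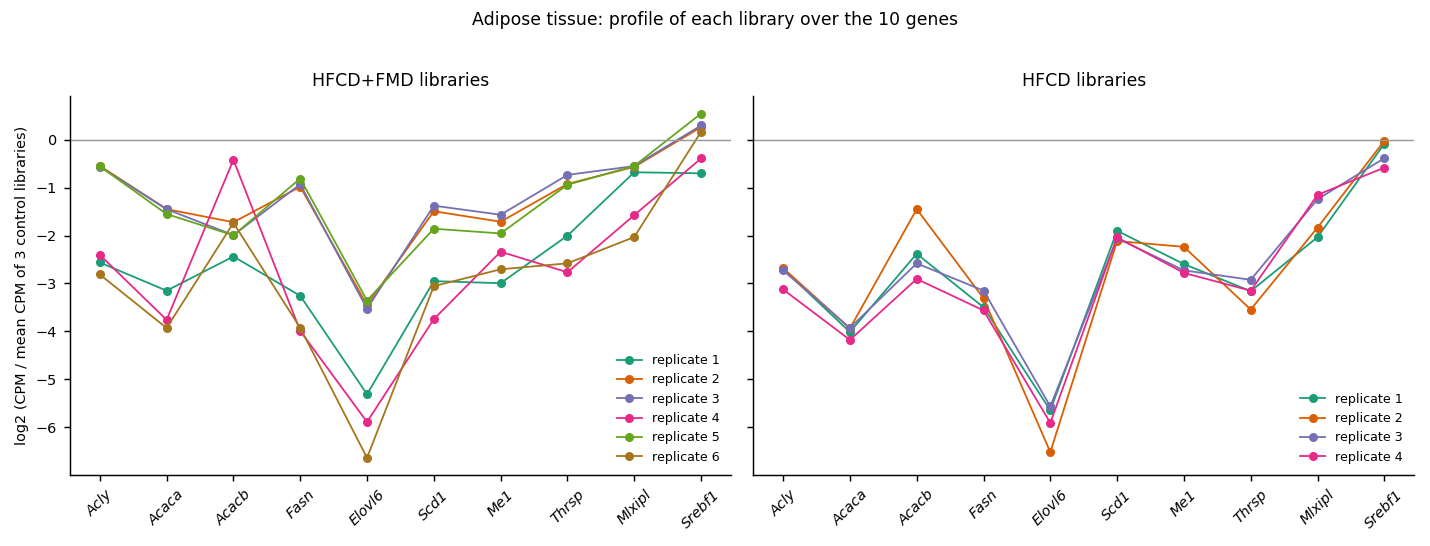
Lines join the 10 genes within each adipose library, as log2 of the library's CPM over the mean of the 3 control libraries (0 = control mean), for the 6 HFCD+FMD libraries (left) and the 4 HFCD libraries (right). The HFCD+FMD lines lie further apart than the HFCD lines, least so at Acacb, with replicates 2, 3 and 5 near each other and Acacb of replicate 4 (156 CPM) above the rest.

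Counted by library, HFCD+FMD replicates 2, 3 and 5 were each above every HFCD library for 9 of the 10 genes (all but Acacb), replicate 1 for 5, replicate 4 for 4 and replicate 6 for 2. Replicates 1 and 6 were each below every HFCD library for 3 genes, and replicate 4 for 2. The share of all genes placed so in each library was not computed, so these counts cannot be weighed against it. Setting replicates 2, 3 and 5 apart was read from these same genes. The labels give nothing that separates these libraries: all but replicate 3 (21 months) were aged 20 months, and the depot, the cage and the refeeding state of single mice are not named. The macrophage marker sum was 1845, 1954, 861, 2466, 832 and 3205 CPM in HFCD+FMD replicates 1 to 6, against 2153 to 4090 CPM in HFCD. The adipocyte marker sum was 17930, 19620, 24240, 18890, 22690 and 24310 CPM in the same order, against 19710 to 23420 CPM. Replicates 3 and 5 thus had the lowest macrophage sums and replicates 4 and 6 the highest. None of the markers of either list was called in this comparison, and their part in the spread was not tested.
No gene of the 10 pathway lists was called between HFCD+FMD and HFCD either. The call depended on the method: DESeq2 and voom with library quality weights each called 3 of the 10 higher, Acly, Acaca and Thrsp (DESeq2 adjusted p = 0.0306, 0.00619 and 0.000961; voom 0.0452, 0.0211 and 0.009). Both methods also called more of all genes than edgeR did. Without HFCD+FMD replicate 4, edgeR called Thrsp (log2 1.90, adjusted p = 0.0384).

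The third comparison set the HFCD+FMD adipose libraries against control. Of the 10 genes, 6 fell: Elovl6, Scd1, Acaca, Me1, Acacb and Thrsp. Of all genes tested, 9.26% were called lower. Every HFCD+FMD library lay below every control library for 8 of the 10, all but Acacb and Srebf1, against 10.5% of all genes. This comparison shares its control libraries with the first, so the values below are set beside those of HFCD without a test between them.

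Elovl6 averaged 61.5 ± 46.5 CPM in HFCD+FMD libraries and 1125 ± 429 CPM in control libraries, 18.3-fold lower (log2 -4.19 ± 0.62, adjusted p = 0.00236), where the HFCD fold was 58.3. Scd1 averaged 23420 ± 13900 CPM and 104800 ± 14570 CPM (log2 -2.16 ± 0.43, adjusted p = 0.00753). Acaca averaged 221 ± 151 CPM and 1001 ± 232 CPM (log2 -2.18 ± 0.49, adjusted p = 0.0125). The highest HFCD+FMD library, 367 CPM, was still under 753 CPM, the lowest control. Me1 averaged 391 ± 144 CPM and 1702 ± 581 CPM (log2 -2.12 ± 0.30, adjusted p = 0.00201).
Thrsp averaged 655 ± 361 CPM and 1775 ± 576 CPM, 2.71-fold lower (log2 -1.44 ± 0.41, adjusted p = 0.029). Acacb averaged 70.8 ± 42.6 CPM and 208 ± 114 CPM (log2 -1.56 ± 0.45, adjusted p = 0.0304), with 1 HFCD+FMD library, replicate 4, above the lowest control library. The 4 genes that did not pass were Fasn, at 3738 ± 3070 CPM and 12220 ± 2888 CPM (log2 -1.71 ± 0.63, adjusted p = 0.0716), Acly (log2 -1.24 ± 0.50, adjusted p = 0.0918), Mlxipl (log2 -0.88 ± 0.33, adjusted p = 0.0718) and Srebf1 (log2 0.09 ± 0.28, adjusted p = 0.839).
Single libraries and the choice of fit moved these calls. No share of all genes is given for the alternative fits here, so their counts among the 10 cannot be weighed. DESeq2 called 9 of the 10, adding Fasn, Acly and Mlxipl (log2 -1.72, -1.25 and -0.90, adjusted p = 0.0206, 0.0412 and 0.0347), and Fasn also passed with voom and quality weights (adjusted p = 0.0478) and with limma on the deposited log2 values (0.036). In the other direction, Acacb missed the threshold with age as a covariate (0.0533), and Acacb and Thrsp missed it when only these 2 diets were fitted (0.0512 and 0.0665). Without control replicate 1, the library with 130 CPM of Ucp1, 3 of the 10 were called, and Acaca, Acacb and Thrsp missed the threshold (adjusted p = 0.0615, 0.188 and 0.131). Without control replicate 3, Acacb and Thrsp missed it (0.0815 and 0.086), and Acacb also without HFCD+FMD replicate 2 (0.0521) or 6 (0.0563). Fasn passed without HFCD+FMD replicate 5 (0.0495) and Mlxipl without control replicate 5 (0.0472).

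In the lists, to be read against 9.26% of all genes called lower and 10.5% called higher, 6 of 11 acetyl-CoA supply genes were lower in HFCD+FMD than in control libraries, as were 2 of 9 NADPH genes, 7 of 16 other elongation and desaturation enzymes and 5 of 15 triglyceride assembly genes (1 rose). Acss2 averaged 180 ± 112 CPM against 794 ± 270 CPM (log2 -2.14 ± 0.44, adjusted p = 0.00843) and Tkt 604 ± 286 against 2029 ± 413 CPM (log2 -1.75 ± 0.33, adjusted p = 0.00587). Slc2a5, at 1.28 ± 1.34 CPM against 10.9 ± 6.75 CPM, fell as well (adjusted p = 0.0257). Txnip, a glucose-induced target of ChREBP, averaged 1276 ± 301 CPM against 2116 ± 102 CPM (log2 -0.73 ± 0.18, adjusted p = 0.0173); under HFCD its adjusted p was 0.116. Srebf2 was higher again and Insig2, which holds SREBP back in the endoplasmic reticulum, lower (log2 0.61 ± 0.16 and -0.59 ± 0.18, adjusted p = 0.0222 and 0.0365). None of the 14 nuclear receptors and cofactors was called, against 5 lower and 1 higher of 14 modifiers, 2 lower of 9 genes of mitochondrial synthesis and 2 lower of 8 uptake genes. Beside these values, 4 of 7 macrophage and 3 of 5 endothelial markers (Tek, Pecam1 and Cdh5) were higher than in control libraries, and 2 of 8 adipocyte, 2 of 8 brown or beige fat (Dio2 and Cidea), 1 of 3 skeletal muscle and 3 of 5 hepatocyte markers were lower. The endothelial sum was 1056 to 2131 CPM in HFCD+FMD libraries, against 771 to 900.5 CPM in control, and the brown or beige fat sum 225 to 344 CPM, against 221 to 700 CPM. The median log2 fold change of the 10 genes was -1.63, and 0 over all genes tested.

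In the heart the 10 genes took a smaller share of all reads than in adipose tissue and stood in another order. Together they took 0.0243 to 0.0670% of counts in HFCD+FMD libraries, 0.0188 to 0.0685% in HFCD and 0.0484 to 0.0789% in control. The tissues were scaled separately and their levels were not tested against each other. By group means 9 of the genes were lower in heart than in adipose tissue in each diet, while Acacb averaged 70.8, 44.7 and 208 CPM in adipose tissue and 265.5, 320.4 and 318 CPM in heart, under HFCD+FMD, HFCD and control. Per kilobase, Acacb led in every diet (27.6 ± 6.41, 33.3 ± 8.89 and 33.0 ± 6.96 CPM per kb in HFCD+FMD, HFCD and control), followed by Me1 (23.0 ± 4.08, 22.1 ± 3.06 and 19.3 ± 2.10), and Acaca and Elovl6 came last (0.211 to 0.278 CPM per kb, apart from 0.141 for Elovl6 under HFCD). Acacb and Acaca thus stood in opposite order in the 2 tissues on control diet: per kilobase Acacb was 0.216 to 0.469 times Acaca in control fat and 71.9 to 165 times Acaca in control hearts. The malonyl-CoA of Acacb is known as the brake on fatty acid oxidation in heart muscle.

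No diet comparison called any of the 10 genes in heart (edgeR, library set as a factor). Adjusted p-values ran from 0.367 to 0.946 for HFCD against control, where 0% of all genes were called and 12.8% had an unadjusted p under 0.05. They ran from 0.438 to 0.996 for HFCD+FMD against HFCD (0.106% and 11.0%) and from 0.355 to 0.909 for HFCD+FMD against control (0.0227% and 9.48%). At an unadjusted p under 0.05, Fasn, Elovl6 and Scd1 would pass in the first, Thrsp and Mlxipl in the second, and Acaca, Fasn and Scd1 in the third.

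Scd1 had 14.6, 17.2, 19.9 and 23.6 CPM in HFCD+FMD hearts, 13.0, 17.2, 30.1, 15.3 and 36.3 CPM in HFCD hearts and 25.4, 23.7, 19.4, 97.8 and 45.4 CPM in control hearts (replicates 2 to 6). Control replicates 5 and 6 stood highest (log2 -1.20 ± 0.43, adjusted p = 0.367 for HFCD against control; -1.63 ± 0.55, 0.355 for HFCD+FMD against control). Fasn had 15.9, 14.9, 13.6 and 11.2 CPM in HFCD+FMD, 15.9, 15.1, 10.6, 14.2 and 20.6 CPM in HFCD and 14.9, 23.9, 17.9, 42.2 and 25.8 CPM in control (log2 -0.75 ± 0.27, adjusted p = 0.37, and -0.96 ± 0.35, 0.402). Again control replicate 5 was highest and the groups overlapped. Without that library the log2 fold change for HFCD against control came to -0.37 for Scd1 and -0.33 for Fasn (adjusted p = 0.553 and 0.482).
Adipocyte RNA was present in some hearts. Adipoq stood at 3.01 CPM in control replicate 5, 1.22 in control replicate 6 and 9.31 in HFCD replicate 5, the libraries with the highest Scd1, and at 0.0722 to 0.591 CPM in the other 11. Plin1, the coat protein of fat droplets, was at 2.96, 1.51 and 5.65 CPM in the same 3 and at 0 in 4 others. The sum over the 8 adipocyte markers was 440 to 553 CPM in HFCD+FMD, 544 to 914 in HFCD and 347 to 900 in control, most of it Fabp4, which heart vessels also express. Of the 8 markers, 2 were called lower in HFCD+FMD than in HFCD and 2 in HFCD+FMD than in control, 0 in HFCD against control. Without the 3 libraries over 1 CPM of Adipoq, a choice made after the values were seen, 0 of the 10 genes were called in HFCD against control. The log2 fold changes were then -0.39 for Scd1 and -0.47 for Fasn. In that fit HFCD+FMD shared a library set with another diet only through HFCD+FMD replicate 1 and control replicate 4. Its values against control, -0.41 for Scd1 and -0.16 for Fasn, describe that pair of libraries only, and calls for HFCD+FMD cannot be read from it.

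No other of the 10 genes was called in heart either. Mlxipl had 7.50, 9.92, 15.5 and 13.4 CPM in HFCD+FMD hearts, against 16.1, 17.8, 24.7, 17.9 and 15.6 CPM in HFCD hearts, without overlap (log2 -0.50 ± 0.23, adjusted p = 0.438). Of all genes, 2.06% had every HFCD+FMD library below every HFCD library. HFCD replicates 1 to 4 were in set A (sets are described below), which held no HFCD+FMD heart. Control hearts averaged 17.5 CPM in set A and 12.5 CPM in set B. In set C, HFCD+FMD hearts reached 15.5 CPM, against 15.6 CPM in HFCD replicate 5. Diet and set cannot be told apart in this separation. Thrsp had 23.6, 15.7, 13.0 and 7.67 CPM, against 14.5, 17.2, 9.28, 12.7 and 8.32 CPM (log2 0.76 ± 0.35, adjusted p = 0.439). Acaca had 4.04, 4.44, 3.74 and 4.18 CPM in HFCD+FMD hearts, 2.67, 3.81, 2.70, 3.50 and 6.82 CPM in HFCD hearts and 5.31, 4.02, 4.14, 4.85 and 5.38 CPM in control hearts (HFCD+FMD against control, log2 -0.71 ± 0.26, adjusted p = 0.396). Its means were 4.10 CPM in HFCD+FMD and 4.74 CPM in control, without allowance for set. HFCD replicate 5, with 6.82 CPM, was the only HFCD heart of set C. In settings other than leave-one-out the log2 fold change ran from -0.79 to -0.03.
Acacb, the leading gene there, ranged from 200 to 329 CPM in HFCD+FMD hearts, 188 to 409 CPM in HFCD hearts and 215 to 377 CPM in control hearts, and its log2 fold changes were -0.28 ± 0.30 for HFCD+FMD against HFCD and 0.15 ± 0.23 for HFCD against control. Me1 ranged from 68.8 to 106, from 64.3 to 92.8 and from 65.8 to 83.7 CPM, Acly from 23.6 to 36.4, from 23.8 to 32.5 and from 28.1 to 35.04 CPM, and Srebf1 from 9.41 to 18.4, from 6.59 to 22.0 and from 13.5 to 27.5 CPM, in the same order of diets. Elovl6, with 1.16 to 1.82, 0.793 to 1.16 and 0.809 to 2.70 CPM, rested on 10 to 103 counts per library (log2 -0.79 ± 0.36, adjusted p = 0.39 for HFCD against control).

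**Figure D4:**
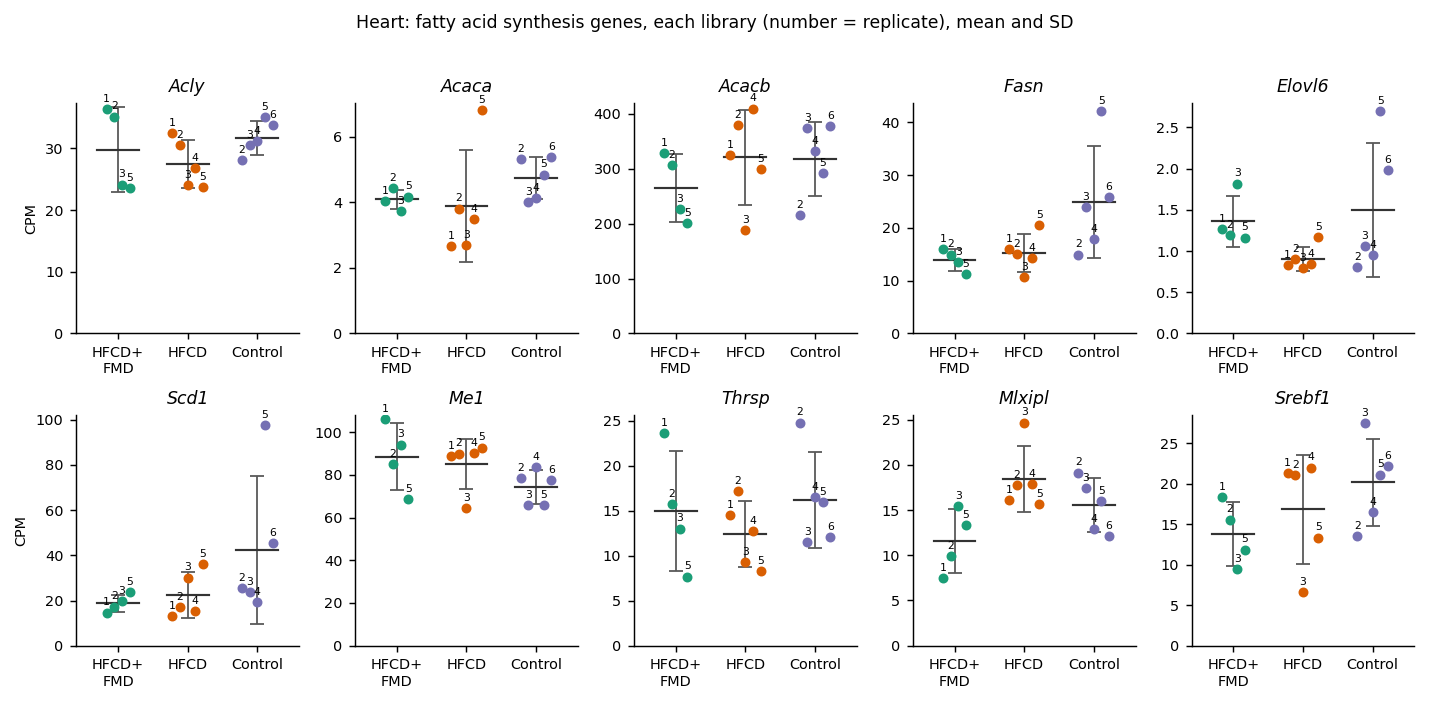
Each point is a heart library (its replicate number above it) for the 10 genes, in CPM on a linear axis from 0, with HFCD+FMD left (n = 4), HFCD in the middle (n = 5) and control right (n = 5); bars are the mean and whiskers the SD. Control replicate 5 is highest for Scd1 (97.8 CPM) and Fasn (42.2 CPM), and the diets overlap for every gene except Mlxipl between HFCD+FMD and HFCD. The CPM are not adjusted for library set, over which the diets are unevenly spread.

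Heart diets were unevenly spread over 3 library sets, recovered from the deposited values: set A held HFCD replicates 1 to 4 and control replicates 2, 3 and 5, set B HFCD+FMD replicate 1 and control replicates 4 and 6, and set C HFCD+FMD replicates 2, 3 and 5 and HFCD replicate 5. Within set A, Scd1 averaged 18.9 CPM in HFCD (13.0 to 30.1) and 49.0 CPM in control (23.7 to 97.8), and Fasn 14 (10.6 to 15.9) and 27 CPM (14.9 to 42.2). HFCD+FMD met another diet only through single libraries, in set B at 14.6 CPM of Scd1, against 19.4 and 45.4 CPM in control, and in set C at 17.2 to 23.6 CPM, against 36.3 CPM in HFCD replicate 5.

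Whether the diet response differed between tissues was tested as an interaction in a joint fit of the 27 libraries over 12606 genes. Some of the 18 mice of the study must have given both tissues, but the labels do not say which, and the tissues were treated as independent. The response to HFCD was more negative in adipose tissue than in heart for 8 of the 10 genes, where 10.6% of all genes were called in that direction. The differences in log2 fold change, adipose minus heart, ran from -1.74 ± 0.41 (Mlxipl, adjusted p = 0.0052) to -5.13 ± 0.79 (Elovl6, adjusted p = 0.000175). Me1 had log2 fold changes of opposite sign, -2.57 in adipose tissue and 0.30 ± 0.15 in heart (difference -2.75 ± 0.35, adjusted p = 2.13e-05), although the heart change itself was not called. Scd1 (difference -1.09 ± 0.66, adjusted p = 0.226) and Srebf1 (0.01 ± 0.43, adjusted p = 0.988) did not pass. Scd1 passed without the 3 hearts over 1 CPM of Adipoq (difference -1.72, adjusted p = 0.0492).
For HFCD+FMD against control the interaction was called for Acaca (-1.98 ± 0.57, adjusted p = 0.0207), Elovl6 (-4.02 ± 0.74, adjusted p = 0.00186) and Me1 (-2.38 ± 0.33, adjusted p = 0.000147), where 8.35% of all genes were called in that direction. Acaca missed the threshold with the heart library sets as a factor (-1.47, adjusted p = 0.218) or without adipose control replicate 1 (-1.82, adjusted p = 0.0634). Other genes passed in single alternatives: Scd1 without the 3 hearts over 1 CPM of Adipoq (-1.88, adjusted p = 0.0324), Acacb without adipose control replicate 5 (-1.66, 0.0247) or adipose HFCD+FMD replicate 4 (-1.70, 0.0139), and Thrsp without adipose HFCD+FMD replicate 3 (-1.52, 0.0449) or heart control replicate 2 (-1.55, 0.0484). For HFCD+FMD against HFCD none of the 10 was called, and 0.0159% of all genes were.

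**Figure D5:**
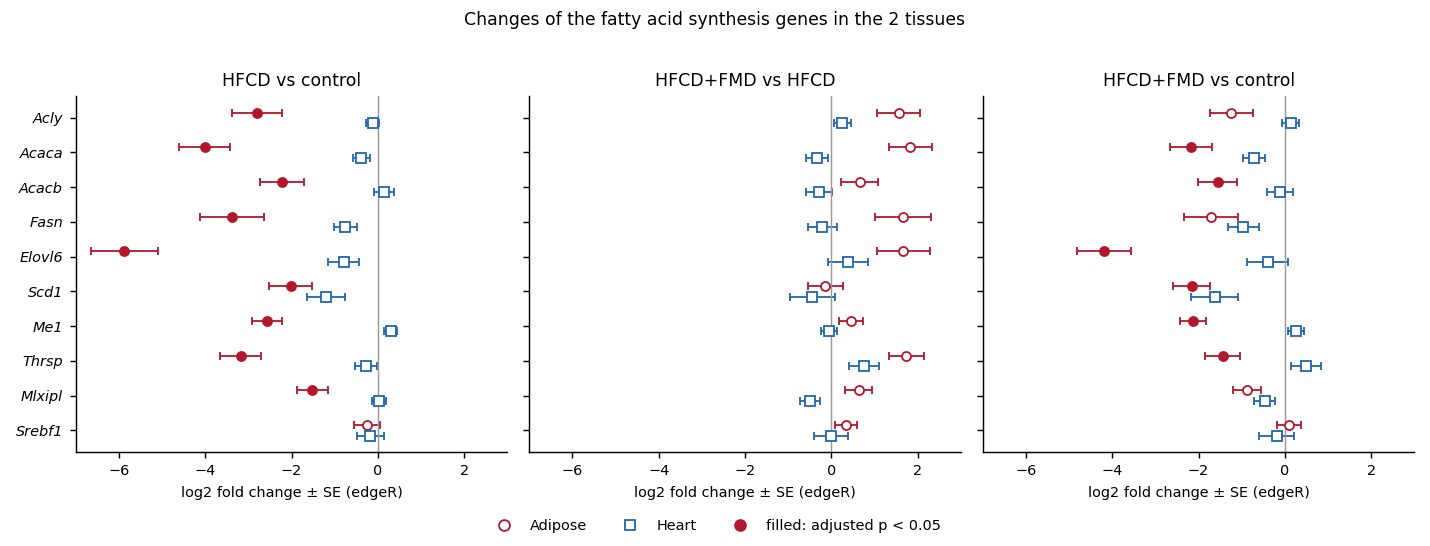
Log2 fold changes with their SE (edgeR) of the 10 genes in adipose tissue (red circles) and heart (blue squares) for the 3 diet comparisons; filled symbols passed an adjusted p of 0.05. Adipose values for HFCD against control run from -0.25 (Srebf1) to -5.87 (Elovl6), heart values from -1.20 (Scd1) to 0.30 (Me1), and all symbols for HFCD+FMD against HFCD are open.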

How the data were processed

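RNA-seq of adipose tissue and heart was analysed from 2 deposited tables per tissue, one of read counts per gene and one of log2 values. Per the labels' protocols, RNA was extracted with RNeasy kits and libraries made with a ribosomal RNA depletion kit. The submitters' processing notes name STAR 2.5.3, R 3.5.3, edgeR, limma and the mm10 build. The counting program is not given in the sources used here. The deposited log2 values matched log2 CPM of the deposited counts with 0.5 added, after removal of library sets in heart, and the 3 heart sets were recovered from them. What a set is, the labels do not state. Of 34 labelled libraries, 27 had columns and 7 were not analysed here.

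The authors' counts were tested with edgeR 4.0.16 (R 4.3.3; TMM scaling, filterByExpr by diet, robust quasi-likelihood fit), each tissue alone with 3 diets, heart with the set as a factor, and Benjamini-Hochberg adjustment over all genes at 0.05. The tissue comparison was an interaction in 1 fit without sets. Gene IDs took symbols from GENCODE M21 where the tables gave none. The 10 genes and the pathway lists were chosen with earlier results of these data known. The named list genes are the up to 4 called genes of smallest p per list and comparison, plus those said to be picked later. Alternatives were RLE scaling, DESeq2 1.42.0, limma 3.58.1 on the deposited log2 values and with voom quality weights, no filter, age as a covariate, fits of only the diets compared, totals without mitochondrial genes, the set factor dropped or added, and each library left out in turn. The edgeR fits for HFCD against control were also run on simulated counts with a constant dispersion and no library set effects. Those runs did not cover the HFCD+FMD comparisons or the uneven spread of the real libraries. Library totals of 15604982 to 47859170 counts set the precision.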

Additional observations from a re-analysis of the deposited data

Results flagged for a closer look

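For 7 of 50 sets of libraries (each gene in each diet and tissue with 4 or more libraries), 1 library lay far from the rest by Dixon's test. Chance would give about 1 in 20 for independent sets. These sets share their libraries between genes, so the count cannot be weighed against that rate. In adipose tissue these were Acly in HFCD replicate 4 (209 CPM, the others 275 to 284 CPM) and Acacb in HFCD+FMD replicate 4 (156 CPM, the others 38.5 to 63.2 CPM). In heart they were Acaca in HFCD replicate 5 (6.82 CPM, the others 2.67 to 3.81 CPM), Elovl6 in HFCD replicate 5 (1.16 CPM, the others 0.793 to 0.897 CPM), Me1 in HFCD replicate 3 (64.3 CPM, the others 88.7 to 92.8 CPM), Mlxipl in HFCD replicate 3 (24.7 CPM, the others 15.6 to 17.9 CPM) and Elovl6 in HFCD+FMD replicate 3 (1.82 CPM, the others 1.16 to 1.27 CPM). HFCD replicate 5 is the heart library with 9.31 CPM of Adipoq and the only HFCD library of set C. HFCD replicate 3 is the heart library with 71.5% of counts from mitochondrially encoded genes.

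The response to diet differed between the tissues in the interaction test for 11 values. For HFCD against control the adipose minus heart difference in log2 fold change was -2.58 for Acly, -3.73 for Acaca, -2.22 for Acacb, -2.66 for Fasn, -5.13 for Elovl6, -2.75 for Me1, -2.78 for Thrsp and -1.74 for Mlxipl. For HFCD+FMD against control it was -1.98 for Acaca, -4.02 for Elovl6 and -2.38 for Me1.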

How the results depend on the processing

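In adipose tissue the 9 calls among the 10 genes for HFCD against control were 9 in every leave-one-out fit, and the genes called in all numbered 2348 (without control replicate 1) to 4854 against 4532. For HFCD+FMD against HFCD the count of the 10 was 0 to 1 without 1 library and 3 with voom or DESeq2, and all genes called numbered 5 to 80, and 471 with voom and 300 with DESeq2, against 31. For HFCD+FMD against control it was 3 (without control replicate 1) to 7 without 1 library, 4 with only the diets compared, 5 with age, 7 with voom or the deposited values and 9 with DESeq2, against 6, and genes called numbered 663 to 3500, and 1834 with only the diets compared, against 2979. In heart, leaving out any 1 library gave 0 calls among the 10 in each comparison. HFCD against control called 0 genes, with 0 in each leave-one-out fit, 226 with voom (2 of the 10, Fasn and Me1), 51 with limma on the deposited log2 values and 63 with DESeq2. HFCD+FMD against HFCD called 14 genes, 0 to 368 without 1 library, 2 with age, 0 without the set factor or without the libraries high in Adipoq or in mitochondrial counts, 268 with only the diets compared, 1328 on the deposited values (1 of the 10, Mlxipl) and 282 with DESeq2. HFCD+FMD against control called 3 genes, 0 to 217 without 1 library, 0 without the set factor and 26 with voom. It called 1193 on the deposited values (3 of the 10, Acaca, Fasn and Scd1) and 138 with DESeq2. Without HFCD replicate 5, the libraries high in Adipoq or those high in mitochondrial counts, only HFCD+FMD replicate 1 shared a set with another diet. With only the diets compared, a single library again linked HFCD+FMD to HFCD or to control. Counts of all genes for HFCD+FMD hearts from such fits are left out, apart from the leave-one-out ranges. The deposited values have the sets removed beforehand, which spends no degrees of freedom in the fit. The interaction counts were 8 to 8, 0 to 0 and 2 to 4 in leave-one-out fits, against 8, 0 and 3. The last of these was 2 with sets and 4 without the Adipoq libraries.

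Values that changed sign belong to uncalled results. In heart, HFCD+FMD against HFCD, Acaca came to 0.07 without sets, 0.27 without the high mitochondrial libraries and 0.51 without the Adipoq libraries, Fasn to 0.39 and 0.31 without those same libraries, Me1 to 0.10 with age, 0.05 without sets, 0.04 and 0.13 without those libraries, Scd1 to 0.54 without the high mitochondrial libraries, and Srebf1 to 0.01 with age and on deposited values and 0.36 without the Adipoq libraries. Against control, HFCD+FMD hearts gave Acly -0.09 and Thrsp -0.11 without sets, and Elovl6 0.41 and Srebf1 0.16 without the Adipoq libraries; HFCD hearts gave Mlxipl -0.03 and Srebf1 0.04 without the high mitochondrial libraries and Thrsp 0.05 with voom. In adipose tissue Scd1, HFCD+FMD against HFCD, came to 0.05 with voom. The interaction gave Scd1 -0.16 (HFCD+FMD against HFCD) without the Adipoq libraries, and Srebf1 (HFCD against control) -0.02 with RLE, -0.06 with sets and -0.13 without the Adipoq libraries. Leave-one-out ranges that crossed 0 were, in adipose tissue, Srebf1 -0.50 to 0.08 (HFCD against control) and -0.16 to 0.41 (HFCD+FMD against control) and Scd1 -0.37 to 0.04 (HFCD+FMD against HFCD). In heart they were Thrsp -0.43 to 0.02, Mlxipl -0.11 to 0.12 and Srebf1 -0.34 to 0.04 for HFCD against control, and Acaca -0.72 to 0.33, Fasn -0.64 to 0.49, Scd1 -0.84 to 0.24, Me1 -0.17 to 0.15 and Srebf1 -0.13 to 0.14 for HFCD+FMD against HFCD. For the interaction they were Srebf1 -0.24 to 0.33 and Scd1 -0.16 to 0.27. The cause of these changes was not tested. In heart, Acaca, Fasn, Scd1 and Me1 changed sign for HFCD+FMD against HFCD without HFCD replicate 5, the only HFCD library of set C. Without it that comparison ran through HFCD+FMD replicate 1 of set B alone. The Adipoq and high mitochondrial settings leave the same library out. Depth was lowest for Elovl6 in heart, at 10 to 103 counts per library. No paired analysis was possible because the labels give no shared replicate numbers and do not tie libraries to animals.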

Other observations

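Ratios between genes moved with diet in adipose tissue. Per kilobase, Scd1 stood at 9.28 to 35.1 times Fasn in HFCD+FMD libraries, 41 to 58 times in HFCD libraries and 16.2 to 21.6 times in control libraries, so the HFCD range lay above both others. Acacb stood at 0.254 to 3.74 times Acaca in HFCD+FMD libraries, 0.891 to 2.07 times in HFCD libraries and 0.216 to 0.469 times in control libraries. Of the CPM of all 10 genes, Scd1 made up 79.1% in HFCD+FMD, 91.9% in HFCD and 83.8% in control adipose tissue by group means. These ratios were not tested.

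Other genes were ranked by how closely they followed the mean of the 10 lipogenic genes over the 13 adipose libraries, by Pearson's r on log2 CPM with the diet means removed. The first 10 were Tlcd1 (0.968), Tkt (0.966), Med12l (0.935), Cnnm2 (0.933), Chpt1 (0.929), Parm1 (0.928), Angptl8 (0.928), S100b (0.925), Atl2 (0.924) and Nos3 (0.917). Tkt belongs to the NADPH list and the other 9 to none. Of the 10 lipogenic genes themselves, Acacb did not follow the mean of the others (r = -0.04). Mlxipl and Srebf1 followed it less closely than the rest (0.59 and 0.66). Parm1 fell under HFCD (log2 -4.0, adjusted p = 0.00122, edgeR), as did Tlcd1 (-1.07, 0.00697), Chpt1 (-1.35, 0.0106) and Angptl8 (-1.63, 0.032). Med12l, Cnnm2, S100b, Atl2 and Nos3 were not called (edgeR, adjusted p = 0.595, 0.848, 0.743, 0.0614 and 0.463). The libraries share their scaling and the HFCD+FMD ones lie apart from each other, so these values describe a ranking and carry no test.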
